A study of Mus musculus with 4 samples.

Results

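The cadherins and protocadherins are calcium-dependent adhesion molecules, and their transcripts were followed across the cell states of the postnatal dorsal ventricular-subventricular zone (V-SVZ), the germinal layer above the lateral ventricles of the forebrain. Members were taken by gene symbol (Cdh with a number, Pcdh with a number, and the Pcdha, Pcdhb and Pcdhg series). Of 31053 genes listed, 90 matched, and the 85 with at least 20 unique molecular identifiers (UMIs, counted molecules) summed over the 4 deposited matrices were kept as members. The 5 genes set aside were Pcdha1 (7 UMIs), Cdh3 (3 UMIs), and Cdh1, Cdh16 and Pcdhb1 (1 UMI each), while the member nearest to the minimum, Cdh23, had 33 UMIs. Cells came from the microdissected dorsal V-SVZ of OF1 mice, an outbred wild-type stock, with no treatment and no engineered allele in any group. Viable cells were sorted after papain dissociation at postnatal day 2 (P2, 1 library), P12 (2 libraries from independent experiments) and P22 (1 library). The P2 and P22 libraries each pooled 2 mice, and how many mice stand behind each P12 library is not clear from the sources. All mice are labelled male, although the study's methods mention a female at P2.

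Classical cadherins bind cadherins of the same or a related kind on the neighbouring cell and are tied to actin through catenins on their cytoplasmic tails. Type I cadherins such as N-cadherin hold neural epithelium together, and type II cadherins are known for the combinations in which they mark brain regions and neuron groups. Protocadherins lack the catenin-binding tail: the delta protocadherins are solitary genes with tails that bind other partners, and the alpha, beta and gamma clusters are arrays in which each neuron uses its own selection of promoters, which gives the cell an adhesive identity. In the V-SVZ, N-cadherin is known to anchor quiescent neural stem cells to their niche, and neuroblasts and oligodendrocyte precursors leave that niche by migrating.

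By structure the members comprised 2 type I cadherins, 13 type II cadherins, 4 other cadherins, 3 delta-1 and 5 delta-2 protocadherins, 3 other solitary protocadherins, and 13 alpha, 21 beta and 21 gamma genes of the clusters. Their UMIs were unevenly spread: 95977 fell on the delta-2 protocadherins, 91995 on type I cadherins, 38817 on the gamma cluster, 33259 on the delta-1 protocadherins, 29954 on type II cadherins, 14297 on the beta cluster, 8044 on the other protocadherins, 2980 on the other cadherins and 2002 on the alpha cluster. These totals say how well each set was measured and not which gene was expressed most, since capture of the transcript's end differs between genes. The 3 clusters lie side by side on chromosome 18, which holds 58 of the 85 members. In the GENCODE annotation of the mouse genome, all 14 alpha genes share an exon with each other and end in a shared last exon, and so do all 21 gamma genes, of which 3 also have a transcript ending in an exon of its own. None of the 22 beta genes shares an exon. Libraries read from the 3′ end of the transcript therefore cannot tell most alpha or gamma isoforms apart by their ends. Single alpha and gamma genes are uncertain. Cluster sums were used beside them, but they add the same single-gene counts. Molecules from a shared exon that were given to no single gene would be missing from both, which was not examined. Pcdha11 is listed under 2 gene identifiers, both counted as members.

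The 4 matrices held 65323423 to 106402687 UMIs per library, and 19857 cells passed the filters, with medians of 11853.5 to 14303 UMIs per cell. Library pairs shared 5 to 12 cell barcodes. Cells were clustered without the members, and clusters were named from marker genes as quiescent neural stem cells (qNSC-like, in a pallial and a subpallial state), activated stem cells (aNSC-like), transit-amplifying progenitors (TAP-like), GABAergic and glutamatergic neuroblasts (GABA and GLU neuroblast-like), astrocyte-like, ependymal-like and oligodendroglial-like cells. The regional names rest on few markers, counted as higher than in the other P12 cells. In each of the 2 pallial qNSC-like clusters, 4 of 9 pallial and 0 of 9 subpallial regional markers were higher. In the subpallial cluster, 2 of 9 subpallial and 1 of 9 pallial markers were. There 9 of 12 ependymal markers were higher too, against 6 and 2 of 12 in the pallial clusters. Putting the members back into the clustering left 97.9% of cells in the same class. Pallial qNSC-like cells numbered 197 at P2, 2984 and 1954 in the P12 libraries and 305 at P22, whereas GABA neuroblast-like cells numbered 1721, 61, 5 and 1416 in the same order. Highest, lowest and next classes below are among these 9 classes, and the endothelial-like, microglia-like and unnamed clusters are left out of that order. Levels are given as CPM, the UMIs of a gene scaled to a total of 1000000 UMIs over the summed cells of a class in a library. Fold changes come from edgeR, which rescales those totals (TMM). With the library kept as a block, p-values rest on how class differences varied between these few libraries and not on the spread between libraries. The variance of each gene is drawn towards that of all genes. The P12 comparisons leave 1 residual degree of freedom, so very small p-values there lean on that shared variance. Summed counts do not separate fewer expressing cells from less RNA per cell. Cells of one library came from the same animals, and age goes with the version of the read counter, 3.1.0 at P12 and 5.0.1 at P2 and P22, so that for differences between P12 and the other ages an age difference and a software difference cannot be told apart.

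Among type I cadherins, Cdh2 (N-cadherin) was found in each of the 9 classes and was highest in pallial qNSC-like cells, at 386 ± 97.7 CPM (SD, n = 4 libraries). Its level was 298 ± 65.6 CPM in subpallial qNSC-like cells, 178 ± 47.5 CPM in aNSC-like cells, 169 ± 36.4 CPM in TAP-like cells (n = 4 each) and 125 ± 35.2 CPM in oligodendroglial-like cells (n = 3). The 2 qNSC-like states overlapped in their range, and the oligodendroglial-like class was the lowest. Cdh4 (R-cadherin) was highest in GLU neuroblast-like cells, with 137, 38.2 and 88.2 CPM at P2, P12 and P22, and overlapped with pallial qNSC-like cells. Its level in GABA neuroblast-like cells was 11.2, 8.66 and 1.54 CPM at the same ages, below every GLU neuroblast-like sum.

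Some type II cadherins were set apart by class. Of those with a mean of at least 10 CPM in a class, Cdh10, Cdh8 and Cdh6 did not overlap with the next class. Cdh11, Cdh20 and Cdh24 did. Cdh10 stood at 182 ± 26.5 CPM in GLU neuroblast-like cells (n = 3), against 82.3 ± 32.9 CPM in astrocyte-like cells, the next class (n = 4), and the ranges of these classes did not overlap. Cdh8 was likewise highest in GLU neuroblast-like cells, with 50.5 to 82.4 CPM, and did not reach that range in any other of the 9 classes; GABA neuroblast-like cells, the next, spanned 2.47 to 36.4 CPM. Cdh11 peaked in astrocyte-like cells at 69.7 ± 26.1 CPM, overlapping with subpallial qNSC-like cells. Cdh20 was shared between oligodendroglial-like cells (26.5 ± 10.3 CPM) and astrocyte-like cells (19.9 ± 7.38 CPM). Cdh24 had its highest means in the dividing states, 14.2 ± 2.22 CPM in aNSC-like and 13.3 ± 0.81 CPM in TAP-like cells, and both overlapped with oligodendroglial-like cells. Cdh6 reached 27.3 to 49.1 CPM in oligodendroglial-like cells, above the 7.70 to 22.1 CPM of astrocyte-like cells. The other 7 type II members stayed below 10 CPM on average in each of the 9 classes: Cdh7, Cdh9, Cdh12, Cdh18, Cdh19, Cdh22 and Cdh5, the VE-cadherin of blood vessels.

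Of the other cadherins, Cdh13 (T-cadherin, which is held by a lipid anchor and has no tail) stood at 88.3 ± 3.92 CPM in oligodendroglial-like cells, with the next class, GABA neuroblast-like cells, at 4.70 to 33.3 CPM. Cdh26 was an ependymal-like transcript at 10.2 ± 3.07 CPM (n = 3), against 0.431 ± 0.433 CPM in pallial qNSC-like cells, the next class. Cdh17, known from intestinal epithelium, and Cdh23, known from the tip links of hair cells, did not exceed a mean of 0.455 CPM and 0.162 CPM in any of these 9 classes.

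The solitary protocadherins were the best measured members. Pcdh10, whose tail binds the WAVE actin regulators, was shared between subpallial qNSC-like (327 ± 83.5 CPM), astrocyte-like (320 ± 65.3 CPM) and pallial qNSC-like cells (287 ± 109 CPM, n = 4 each), all 3 overlapping. Pcdh8, an activity-regulated protocadherin that is known to act on N-cadherin endocytosis in neurons, was highest in pallial qNSC-like cells at 175 ± 77.3 CPM, and the 82.6 ± 43.3 CPM of subpallial qNSC-like cells overlapped with it over the 4 libraries. Pcdh17 was highest in oligodendroglial-like cells (214 to 319 CPM) without overlap with astrocyte-like cells (118 to 173 CPM). Pcdh7 and Pcdh9, both delta-1 protocadherins, were also highest there on average, at 161 ± 57.1 CPM and 207 ± 124 CPM, but overlapped with the next class. Pcdh15, a second tip-link protein, was found in oligodendroglial-like cells (70.8 to 220 CPM) and then in pallial qNSC-like cells (25.2 to 63.4 CPM), again without overlap. Pcdh18, a delta-2 protocadherin, had its highest mean in TAP-like cells (12.1 ± 3.84 CPM), and the delta-1 gene Pcdh1 in GABA neuroblast-like cells (20.9 ± 12.1 CPM). Pcdh19 and Pcdh20 had theirs in oligodendroglial-like cells at 21.1 and 16.1 CPM, while Pcdh12, known from vascular endothelium, was nearly absent from these 9 classes. Of the 29 members with a mean of at least 10 CPM in a class, 9 were highest in oligodendroglial-like cells, 5 in pallial and 2 in subpallial qNSC-like cells, 4 in GLU and 3 in GABA neuroblast-like cells, 3 in astrocyte-like cells and 1 each in ependymal-like, aNSC-like and TAP-like cells. Only for Cdh26, Pcdh15, Cdh8, Cdh13, Pcdh17, Cdh6 and Cdh10 was the highest class free of overlap with the next. The means cover unlike sets of libraries: oligodendroglial-like and neuroblast-like cells lack P12 replicate 2, and ependymal-like cells lack P22. The same count over all genes was not made, so these counts show no preference of the members for a class.

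**Figure D1:**
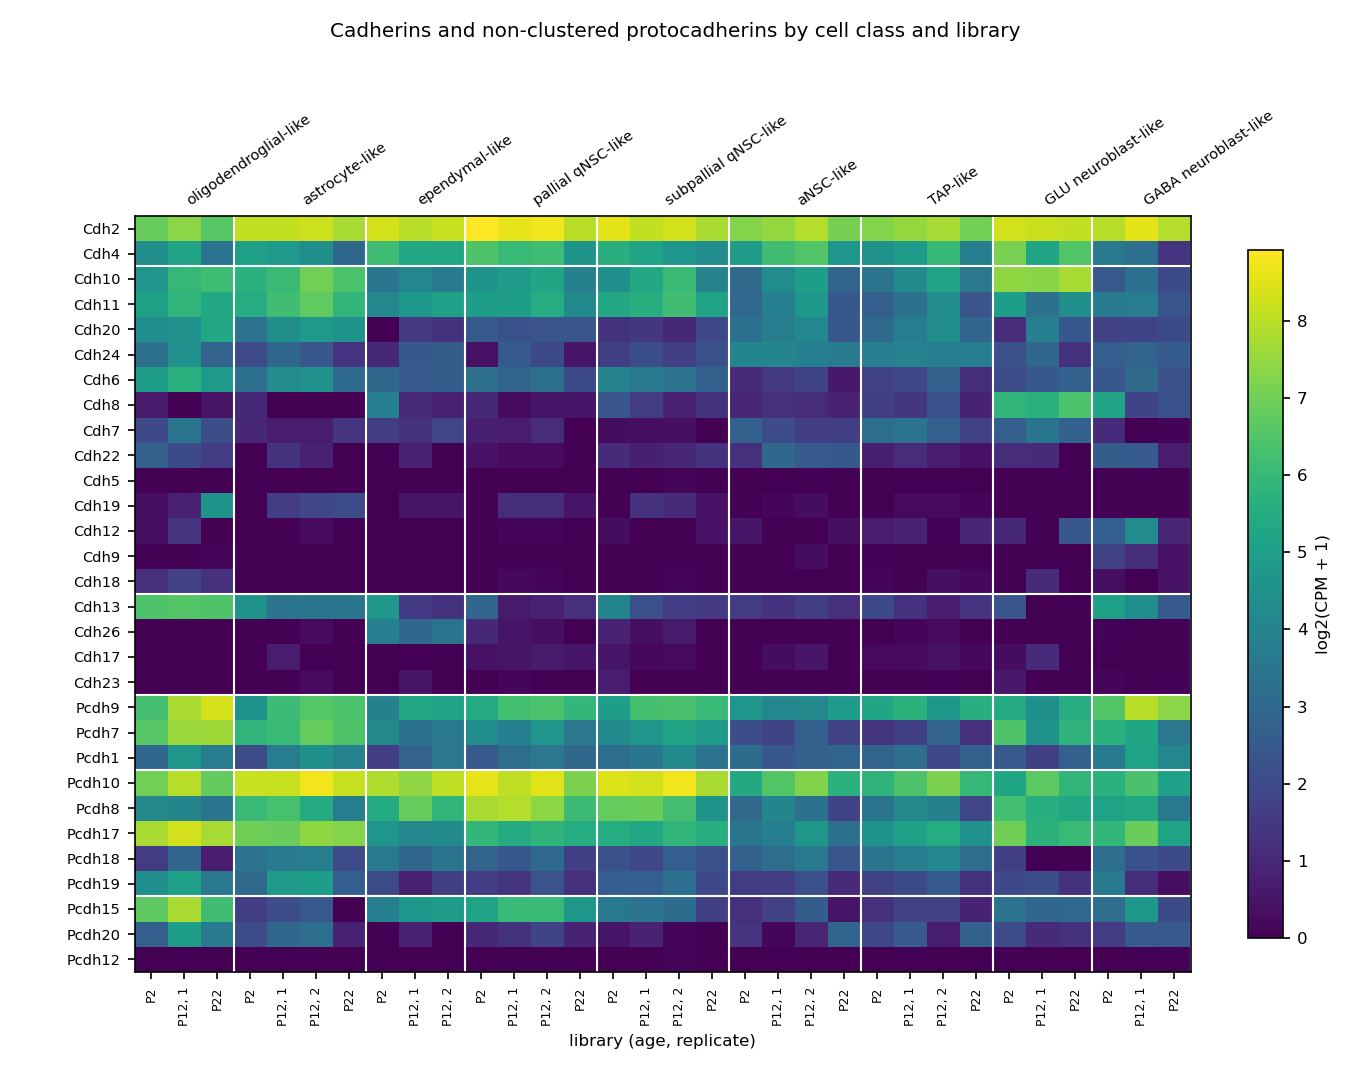
Level of every cadherin and solitary protocadherin member (lines of squares, in blocks by subfamily) in each class and library (columns), as log2(CPM + 1) by colour. Cdh2 and Pcdh10 are bright in nearly every class, while Cdh10 and Cdh8 are brightest in GLU neuroblast-like cells, Cdh26 in ependymal-like cells, and Cdh13, Pcdh7, Pcdh15 and Pcdh17 in oligodendroglial-like cells.

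The plot of levels by class and library covers the cadherins and solitary protocadherins, and the clustered genes were too sparse to be shown one by one. All 13 alpha members, 19 of 21 beta members and 14 of 21 gamma members stayed below 10 CPM on average in each of the 9 classes. Summed over its members, the alpha cluster reached 24.9, 30.9 and 25.5 CPM in GABA neuroblast-like cells at P2, P12 and P22. In GLU neuroblast-like cells the sums were 18.9, 12.3 and 8.82 CPM, and in oligodendroglial-like cells 10.6, 15.6 and 11.6 CPM. Each GABA neuroblast-like sum lay above every GLU neuroblast-like and oligodendroglial-like sum, and pallial qNSC-like cells held at most 2.40 CPM. Pcdha11, the best counted alpha gene (6.53 to 7.42 CPM under the better counted of its identifiers), and Pcdha9 (2.79 to 7.42 CPM) had their highest mean in GABA neuroblast-like cells. Pcdha12 did so as well (2.17 to 3.71 CPM), whereas Pcdhac2 had its highest mean in oligodendroglial-like cells (1.72 to 2.29 CPM).

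The beta sums were high in the same 3 classes, with 79.0, 148 and 82.7 CPM in GABA neuroblast-like, 76.6, 83.1 and 79.4 CPM in GLU neuroblast-like and 86.8, 110 and 91.5 CPM in oligodendroglial-like cells at P2, P12 and P22. These 3 classes overlapped with each other and lay above the other 6 of the 9 classes, of which pallial qNSC-like cells came closest at 23.6, 53.7, 55.8 and 36.3 CPM over the 4 libraries. Pcdhb7 was the best counted beta gene, with 14.3 to 19.8 CPM in GABA neuroblast-like and 12.1 to 20.6 CPM in GLU neuroblast-like cells. The gamma cluster had another pattern, with sums of 144, 171, 226 and 104 CPM in pallial and 117, 152, 224 and 118 CPM in subpallial qNSC-like cells, and a minimum of 50.4, 95.5, 131 and 53.1 CPM in aNSC-like and 44.6, 88.2, 112 and 50.5 CPM in TAP-like cells. In each library the gamma sum of both qNSC-like states exceeded that of aNSC-like and TAP-like cells. Pcdhgc3, one of the C-type genes at the end of the cluster, contributed most, with a mean of 37.4 CPM in astrocyte-like and 30.2 CPM in subpallial qNSC-like cells.

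**Figure D2:**
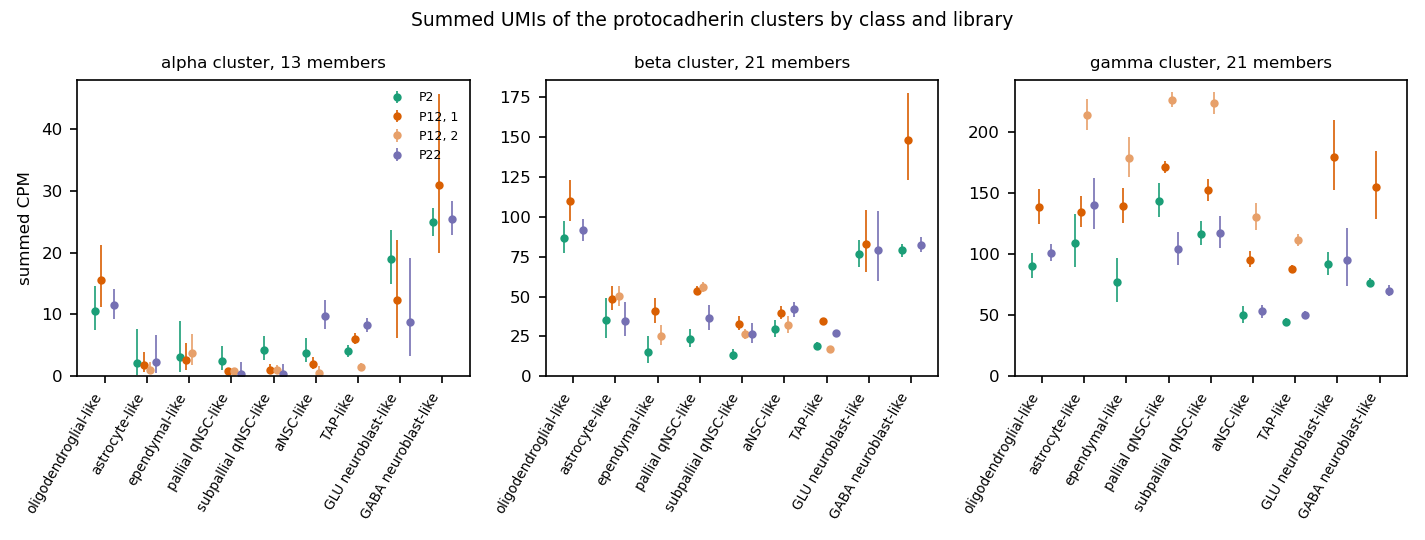
Summed CPM (vertical axis, linear from 0) of the alpha, beta and gamma protocadherin clusters by class and library, each point with its exact Poisson 95% interval, which covers counting error only. Alpha sums are highest in GABA neuroblast-like cells (24.9 to 30.9 CPM), beta sums in neuroblast-like and oligodendroglial-like cells, and gamma sums lowest in aNSC-like and TAP-like cells.

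For sequence context, promoters were read from RefSeq (GRCm38.p6), from 250 bases before to 50 bases after the transcript start. Of the 84 member symbols, 21 matched, with 24 promoters. Their median GC content was 59.8%, against 52.7% over all 32851 promoters. The E-box CANNTG, the motif of basic helix-loop-helix factors such as those of the oligodendrocyte and proneural lineages, reads the same on both strands. It was present in 14 of these 24 promoters and in 72.3% of all promoters. The promoters of Pcdh15, Pcdh7, Cdh6 and Pcdh17 are printed, with E-boxes in capitals, because they belong to 4 of the 5 members with the largest rises in oligodendroglial-like over aNSC-like cells (the other is Cdh13). They lie at chr10:73821617-73821916 (plus strand), chr5:57717831-57718130 (plus strand), chr15:13173626-13173925 (minus strand) and chr14:84443313-84443612 (plus strand), and hold 3, 1, 1 and 0 matches.
Pcdh15: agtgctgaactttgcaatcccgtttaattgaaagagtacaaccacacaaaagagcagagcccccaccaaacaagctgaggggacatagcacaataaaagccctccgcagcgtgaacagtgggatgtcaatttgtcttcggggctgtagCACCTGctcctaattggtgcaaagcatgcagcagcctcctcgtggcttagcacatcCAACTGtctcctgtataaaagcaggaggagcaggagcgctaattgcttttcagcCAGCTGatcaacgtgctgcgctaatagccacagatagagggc
Pcdh7: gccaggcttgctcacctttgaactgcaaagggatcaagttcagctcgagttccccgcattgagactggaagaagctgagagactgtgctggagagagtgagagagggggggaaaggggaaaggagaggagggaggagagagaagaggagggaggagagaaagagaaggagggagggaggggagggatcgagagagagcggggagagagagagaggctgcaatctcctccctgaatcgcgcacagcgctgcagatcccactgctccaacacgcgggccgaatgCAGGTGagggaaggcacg
Cdh6: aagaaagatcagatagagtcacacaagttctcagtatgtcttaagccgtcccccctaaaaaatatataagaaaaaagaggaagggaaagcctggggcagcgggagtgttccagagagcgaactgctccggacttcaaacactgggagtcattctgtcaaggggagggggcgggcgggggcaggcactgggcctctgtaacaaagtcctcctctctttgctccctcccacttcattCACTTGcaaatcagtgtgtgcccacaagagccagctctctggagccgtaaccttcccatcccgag
Pcdh17: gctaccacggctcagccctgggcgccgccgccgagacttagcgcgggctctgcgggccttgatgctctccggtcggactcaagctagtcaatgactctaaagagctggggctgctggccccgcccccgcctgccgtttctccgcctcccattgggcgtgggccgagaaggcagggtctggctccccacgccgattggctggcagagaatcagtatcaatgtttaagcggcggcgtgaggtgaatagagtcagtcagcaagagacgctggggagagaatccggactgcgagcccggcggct
A match describes letters in the window and says nothing of binding there.

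To ask whether adhesion molecules separate the pallial and subpallial stem cell lineages, pallial qNSC-like cells were set against subpallial qNSC-like cells in the 2 P12 libraries. Pcdh15, Pcdh8, Cdh4, Cdh2 and genes of the beta cluster were higher in the pallial state, and Cdh11, Cdh10, Cdh13, Pcdh7, Pcdh10 and Pcdh19 were lower. Of the 63 members that passed the filter on low counts, 20 rose and 12 fell (edgeR's quasi-likelihood test with Benjamini-Hochberg adjustment over 14279 genes, adjusted p under 0.05), while 31.8% of all genes were called, 15.3% as higher and 16.5% as lower. The median log2 fold change was 0.33 over the members tested and 0.01 over all genes. No alpha member passed the filter.

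Pcdh15 had 62.8 and 63.4 CPM in pallial and 9.62 and 7.79 CPM in subpallial qNSC-like cells of P12 replicates 1 and 2, a log2 fold change of 2.85 ± 0.11 (SE, adjusted p = 2.23e-42, edgeR). The groups were far apart in both libraries, and the share of cells with a Pcdh15 UMI was 40.5% and 46.9% in pallial against 8.95% and 8.73% in subpallial qNSC-like cells. After every cell was thinned to 5000 UMIs the shares were 25.3% and 25.5% against 4.27% and 3.50%, and 2.37% and 1.95% in the astrocyte-like cells of these libraries. Pcdh8 had 242 and 167 CPM in pallial against 119 and 77.2 CPM in subpallial qNSC-like cells, and Cdh4 had 64.1 and 69.7 against 35.9 and 24.4 CPM. Both were higher in the pallial state in each library, with log2 fold changes of 1.04 ± 0.06 (edgeR, adjusted p = 5.31e-29) and 1.16 ± 0.09 (edgeR, adjusted p = 8.1e-22). The N-cadherin gene Cdh2 rose by a log2 fold change of 0.42 ± 0.05 (edgeR, adjusted p = 1.12e-10).

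Of 20 beta members tested, 11 rose and none fell, with a median log2 fold change of 0.87. Pcdhb16 had 3.03 and 3.09 CPM in pallial and 0.85 and 0.58 CPM in subpallial qNSC-like cells (log2 fold change 2.11 ± 0.40, edgeR, adjusted p = 6.54e-06). Pcdhb13 rested on few molecules, 18 and 21 UMIs against 0 and 2 UMIs (log2 fold change 2.66 ± 0.87, edgeR, adjusted p = 0.0118). Pcdhb13, and Cdh7 given below, passed the filter on low counts through their pallial sums only, which favoured a rise. The solitary protocadherin Pcdh20 and the cadherin Cdh7 completed the highest changes: Pcdh20 with 1.46 and 2.47 CPM against 0.85 and 0.10 CPM (log2 fold change 2.25 ± 0.53), and Cdh7 with 0.61 and 1.19 CPM against 0.28 and 0.29 CPM (1.67 ± 0.66). Of 21 gamma members, 2 rose (Pcdhga2 and Pcdhga5) and 2 fell (Pcdhgc3 and Pcdhga11).

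In the other direction, 5 of 9 type II cadherins fell. Cdh8 had 0.20 and 0.41 CPM in pallial and 1.98 and 0.77 CPM in subpallial qNSC-like cells (log2 fold change -2.11 ± 0.56), and Cdh22 had 0.20 and 0.21 CPM against 0.71 and 0.96 CPM (-2.02 ± 0.66). Cdh13 had 0.55 and 0.78 CPM against 3.54 and 2.12 CPM (-2.08 ± 0.39). These 3 genes stood at only 5 to 25 UMIs per class and library. Cdh8 and Cdh22 passed the filter on low counts through their subpallial sums only, which favoured a fall. Pcdh19, the X-linked delta-2 protocadherin whose human gene is known from an epilepsy of girls, had 1.60 and 3.83 CPM in pallial and 5.37 and 8.66 CPM in subpallial qNSC-like cells (log2 fold change -1.41 ± 0.23, edgeR, adjusted p = 1.52e-07). Pcdh7 had 13.4 and 24.0 CPM against 24.6 and 35.7 CPM (-0.72 ± 0.10, edgeR, adjusted p = 3.93e-09). Cdh11 and Cdh10 fell by 0.70 and 0.68 on the log2 scale (edgeR, adjusted p = 6.96e-14 and 9.05e-12). In all members named here both libraries showed the same direction.

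With the animals of a library not kept as a block, only Pcdh15 of the 32 remained called, and with DESeq2 11 remained, namely Pcdh15, Pcdh8, Cdh4, Cdh2, Pcdhb16, Pcdh19, Pcdh10, Pcdh7, Cdh11, Cdh13 and Cdh10. The beta cluster as a set of calls therefore rested on the blocked edgeR fit. The summed astrocyte marker list stood at 3080 and 2850 CPM in pallial and 3350 and 3290 CPM in subpallial qNSC-like cells with all 13 genes found in each, and the GABA neuroblast list at 169 and 131 CPM against 130 and 96.3 CPM with all 12 found.

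**Figure D3:**
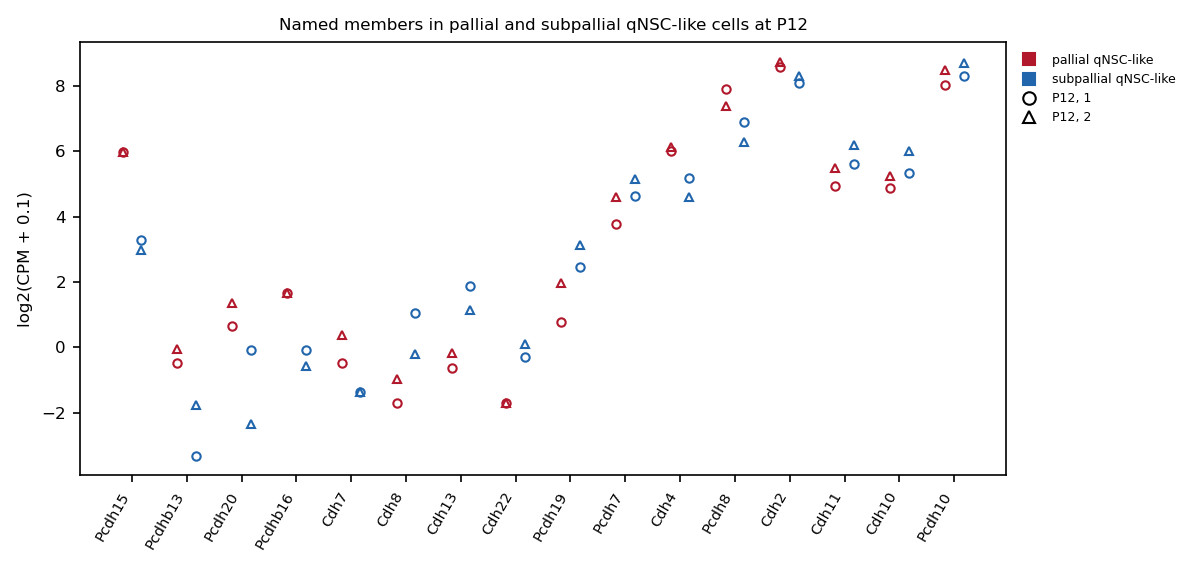
Level on a log2(CPM + 0.1) axis of named members in pallial (red) and subpallial (blue) qNSC-like cells of the 2 P12 libraries (circle, replicate 1; triangle, replicate 2). Pcdh15 is at 62.8 and 63.4 CPM in pallial cells, above the 9.62 and 7.79 CPM of subpallial cells, while Pcdh19 and Pcdh7 are lower in the pallial state.

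The same question was asked of dividing cells, with aNSC-like and TAP-like cells gated as pallial or subpallial by regional transcription factors (242 and 242 pallial against 1072 and 201 subpallial cells at P12). Of 45 members tested 1 was called, Pcdh8, against 0.328% of all genes, and 8 members had an unadjusted p under 0.05. Pcdh8 had 49.1 and 26.8 CPM in gated pallial and 9.20 and 4.90 CPM in gated subpallial cells, a log2 fold change of 2.30 ± 0.19 (edgeR, adjusted p = 0.0485). Its groups did not overlap, and the call was lost without the block, where no member was called. Pcdh8 was thus higher in the pallial side both in quiescent and in dividing cells, each tested on its own cells of the same libraries.

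Activation of stem cells was followed by comparing aNSC-like with qNSC-like cells, both regional states pooled, in the P12 libraries. The pooled qNSC-like cells were mostly pallial, 2984 of 3576 in replicate 1 and 1954 of 2641 in replicate 2. Whether aNSC-like cells had the same regional mix was not tested. Most solitary protocadherins and most gamma genes fell, while type II cadherins were called in both directions. Of 64 members tested, 7 rose and 32 fell, against 67.9% of all genes called, 33.2% higher and 34.7% lower, so the members' share was below the background for rises and above it for falls. The median log2 fold change was -0.68 over the members and -0.05 over all genes.

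Pcdh8 had 16.0 and 9.18 CPM in aNSC-like and 218 and 140 CPM in qNSC-like cells, a log2 fold change of -3.85 ± 0.14 (edgeR, adjusted p = 4.19e-42). Pcdh15 had 2.42 and 5.18 CPM against 52.5 and 46.7 CPM (-3.90 ± 0.21, edgeR, adjusted p = 2.55e-31). These were the 2 largest falls among the 64 members tested. Both genes were also higher in pallial than in subpallial qNSC-like cells. In subpallial qNSC-like cells alone, Pcdh15 stood at 9.62 and 7.79 CPM and Pcdh8 at 119 and 77.2 CPM, still above aNSC-like cells. The part of the regional mix in these falls was not tested. The delta-1 genes followed: Pcdh7 had 2.53 and 5.65 CPM in aNSC-like and 15.6 and 27.5 CPM in qNSC-like cells (-2.48 ± 0.23), and Pcdh9 had 16.5 and 17.2 CPM against 74.8 and 83.0 CPM (-2.25 ± 0.14). Cdh19, a type II cadherin known from glia of peripheral nerves, rested on 1 UMI in each aNSC-like sum against 46 and 42 UMIs. Cdh19 passed the filter on low counts through its qNSC-like sums only, which favoured a fall. All 3 delta-1 members and 3 of 5 delta-2 members fell, and Cdh2 fell by 0.88 ± 0.11 on the log2 scale (edgeR, adjusted p = 1.77e-11).

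In the gamma cluster 15 of 21 members fell and none rose, with a median log2 fold change of -0.72, and in the beta cluster 4 of 20 fell. Pcdhgc3, the best counted gamma gene, fell by 0.74 ± 0.15 on the log2 scale (edgeR, adjusted p = 1.67e-05), and Pcdhgb7 by 1.81 ± 0.22 (edgeR, adjusted p = 9.43e-12). Of these 15 gamma calls, 5 remained with DESeq2 and 5 without the block.

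Of 9 type II cadherins tested 5 rose and 4 fell (Cdh19, Cdh6, Cdh11 and Cdh10). Cdh22 had 6.79 and 4.94 CPM in aNSC-like and 0.30 and 0.43 CPM in qNSC-like cells (log2 fold change 3.98 ± 0.41, edgeR, adjusted p = 8.39e-15). Cdh20 had 12.9 and 16.9 CPM against 3.32 and 3.20 CPM (2.14 ± 0.24, edgeR, adjusted p = 1.96e-13), and Cdh24 15.6 and 13.4 CPM against 4.50 and 2.71 CPM (1.99 ± 0.23, edgeR, adjusted p = 1.83e-12). None of these overlapped between the groups. Cdh22 passed the filter on low counts through its aNSC-like sums only, which favoured a rise. Cdh7 had 3.11 and 2.12 CPM in aNSC-like against 0.55 and 0.92 CPM in qNSC-like cells (1.90 ± 0.45), and Cdh8 rested on 12 and 5 UMIs in aNSC-like cells (1.24 ± 0.56). The type I cadherin Cdh4 rose by a log2 fold change of 0.46 ± 0.12 and so moved against Cdh2, and the delta-2 gene Pcdh18 rose by 0.84 ± 0.24 (edgeR, adjusted p = 0.00133). The count of 39 calls stood at 21 with DESeq2 and at 20 without the block.

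The next step, TAP-like against aNSC-like cells at P12, moved few members: of 57 tested 7 rose and 3 fell, against 30.7% of all genes called, 16.3% higher and 14.4% lower. This comparison shares its aNSC-like sums with the one before. Pcdh9 had 52.3 and 25.7 CPM in TAP-like and 16.5 and 17.2 CPM in aNSC-like cells (log2 fold change 1.39 ± 0.21, edgeR, adjusted p = 0.000353), and Pcdh17 had 33.4 and 45.3 CPM against 13.3 and 25.2 CPM (1.26 ± 0.15, edgeR, adjusted p = 5.87e-05). Both delta protocadherins were higher in TAP-like cells in each library. Cdh7 had 9.61 and 5.63 CPM against 3.11 and 2.12 CPM (1.72 ± 0.28), Cdh6 2.78 and 5.90 CPM against 1.84 and 2.59 CPM (1.03 ± 0.34), and Pcdh18 13.1 and 17.0 CPM against 8.40 and 11.1 CPM (0.80 ± 0.18). Cdh22 fell again, to 1.20 and 0.60 CPM in TAP-like cells against 6.79 and 4.94 CPM in aNSC-like cells (-2.5 ± 0.35, edgeR, adjusted p = 0.000205), so that aNSC-like cells held the most of it in these 3 states. Pcdhb4 (-1.65 ± 0.55) and Cdh4 (-0.79 ± 0.15) fell as well. Pcdh20 was called as higher from 167 and 12 UMIs in TAP-like against 1 and 4 UMIs in aNSC-like cells, but rose in replicate 1 only. No member was called without the block, and 5 of the 10 were called with DESeq2 (Cdh7, Cdh22, Cdh4, Pcdh17 and Pcdh9). The GABA neuroblast marker list summed to 3110 and 463 CPM in TAP-like and 794 and 227 CPM in aNSC-like cells, with all 12 genes found except Gad2 and Sp9 in aNSC-like cells of replicate 2. Its part in these results was not tested.

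Neuronal commitment was examined by comparing GABA neuroblast-like with TAP-like cells in the P2, P12 replicate 1 and P22 libraries, the second P12 library holding too few neuroblasts. Here most of the alpha and beta genes tested were higher. Of 70 members tested 40 rose and 7 fell, against 50% of all genes called, 24% higher and 26% lower, and the median log2 fold change was 1.17 over the members and 0.00 over all genes. By subfamily, 7 of 8 alpha, 16 of 20 beta and 5 of 20 gamma members rose and none of them fell, and all 3 delta-1 protocadherins rose. The gamma count was close to the share of all genes called higher. Sparse genes such as Pcdha3 and Pcdhb12 passed the filter on low counts only through their neuroblast sums. For such genes a rise was favoured by the filter, so the alpha and beta counts are no test of direction. With no filter, 44 members rose and 7 fell.

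Pcdh7 had 51.1, 37.1 and 10.6 CPM in GABA neuroblast-like and 1.62, 2.23 and 1.31 CPM in TAP-like cells at P2, P12 and P22, a log2 fold change of 3.93 ± 0.36 (edgeR, adjusted p = 9.46e-05). Every neuroblast sum exceeded every TAP-like sum. Pcdh9 rose by a log2 fold change of 1.64 ± 0.16 (edgeR, adjusted p = 0.000126) and Pcdh17 by 1.16 ± 0.19 (edgeR, adjusted p = 0.00159). Cdh13 had 33.3, 19.8 and 4.70 CPM in GABA neuroblast-like against 3.03, 1.47 and 1.58 CPM in TAP-like cells (2.80 ± 0.42, edgeR, adjusted p = 0.00103). Its P12 sum came from 2 of 61 cells, and 12.96% and 1.62% of GABA neuroblast-like cells had a Cdh13 UMI at P2 and P22, against 6.09% and 3.69% of the more deeply counted TAP-like cells. After thinning to 5000 UMIs the shares at P2, P12 and P22 were 7.86%, 3.33% and 0.65% in GABA neuroblast-like against 1.19%, 1.11% and 0.33% in TAP-like cells.

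Among the clustered genes, Pcdhb7 rose by a log2 fold change of 2.00 ± 0.21 (edgeR, adjusted p = 0.000192), the best supported of the beta members. Pcdhb12 had 1.19, 1.24 and 1.17 CPM in GABA neuroblast-like and 0.06, 0.23 and 0.13 CPM in TAP-like cells (3.15 ± 0.65). The alpha genes Pcdha5, with 2.68, 3.71 and 2.79 CPM against 0, 0.44 and 0.83 CPM (2.88 ± 0.78), and Pcdha3, with 0.93, 2.47 and 0.81 CPM against 0.06, 0.06 and 0.09 CPM (3.85 ± 0.76), did not overlap between the classes. Of the 7 alpha and 16 beta calls, 7 and 13 remained with DESeq2 and 6 and 11 without the block, whereas none of the 5 gamma calls remained without it.

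The 7 members that fell were cadherins and delta-2 protocadherins. Cdh7 fell to 1.08, 0 and 0.07 CPM in GABA neuroblast-like cells, against 8.29, 9.61 and 2.32 CPM in TAP-like cells (-3.55 ± 0.48, edgeR, adjusted p = 0.000643). Cdh4 had 11.2, 8.66 and 1.54 CPM against 22.5, 28.6 and 13.1 CPM (-1.92 ± 0.37), and Cdh20 2.27, 2.47 and 3.01 CPM against 7.17, 12.6 and 6.48 CPM (-1.59 ± 0.29). Cdh10 (-1.45 ± 0.25) and Cdh24 (-1.42 ± 0.21) fell in the same way, without overlap between the classes. Cdh2 moved against them and rose by 0.77 ± 0.11 on the log2 scale (edgeR, adjusted p = 0.000678). Leaving out a library gave 33 to 40 calls instead of 47, and the unblocked fit gave 30. The GABA neuroblast list already stood at 5150, 3110 and 3990 CPM in the TAP-like cells compared here, against 12300, 11900 and 13800 CPM in GABA neuroblast-like cells.

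The 2 neuronal lineages were then compared directly, GLU against GABA neuroblast-like cells in the same 3 libraries, with GABA neuroblast-like sums shared with the comparison above. Only 59 to 317 GLU neuroblast-like cells were available per library. Of 38 members tested 3 rose and 3 fell, against 10.6% of all genes called, 5.52% higher and 5.03% lower. Both counts were close to the share of all genes. The members that rose were 2 of 7 type II and 1 of 2 type I cadherins tested, those that fell were 2 of 3 delta-1 protocadherins and Cdh13, and no clustered protocadherin was called.

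Cdh10 had 172, 162 and 212 CPM in GLU neuroblast-like and 4.79, 8.66 and 3.01 CPM in GABA neuroblast-like cells at P2, P12 and P22, a log2 fold change of 5.25 ± 0.29 (edgeR, adjusted p = 4.77e-05). A Cdh10 UMI was found in 72.2%, 78.7% and 78.0% of GLU neuroblast-like cells against 3.54%, 4.92% and 2.26% of GABA neuroblast-like cells, and in 1.33% of microglia-like cells at P22. Thinned to 5000 UMIs, the shares were 50.2%, 55.7% and 54.2% against 1.17%, 3.33% and 1.30%. Cdh10 had the largest fold change of the 38 members. Cdh4 had 137, 38.2 and 88.2 CPM in GLU neuroblast-like against 11.2, 8.66 and 1.54 CPM in GABA neuroblast-like cells (3.97 ± 0.49, edgeR, adjusted p = 0.00166), and Cdh7 had 5.57, 10.1 and 5.88 CPM against 1.08, 0 and 0.07 CPM (3.09 ± 0.76). Cdh8 had 56.7, 50.5 and 82.4 CPM against 36.4, 2.47 and 3.74 CPM, which did not overlap but missed the threshold (edgeR, adjusted p = 0.0837). Cdh7 passed the filter on low counts through its GLU neuroblast-like sums only, which favoured a rise.

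In GABA neuroblast-like cells, T-cadherin and 2 delta-1 protocadherins were the higher ones. Cdh13 fell to 4.12, 0 and 0 CPM in GLU neuroblast-like cells, against 33.3, 19.8 and 4.70 CPM in GABA neuroblast-like cells (-3.52 ± 0.50, edgeR, adjusted p = 0.00306). A floor of 3 UMIs corresponds to 3.37 CPM at P12 and 4.41 CPM at P22 in the GLU sums. The P22 level of GABA neuroblast-like cells lay at about that floor, so the P22 library alone cannot show a difference. The 19.8 CPM at P12 came from 2 of 61 GABA neuroblast-like cells. The difference in Cdh13 thus leans on the P2 library. Pcdh9 had 42.6, 21.3 and 45.6 CPM against 90.9, 246 and 165 CPM (-2.10 ± 0.36, edgeR, adjusted p = 0.00811), and Pcdh1 had 4.60, 2.25 and 5.88 CPM against 11.8, 34.6 and 16.4 CPM (-2.06 ± 0.44). Without P12 replicate 1, which holds 61 cells of each class, 12 members were called. The GLU neuroblast list summed to 2640, 2180 and 2180 CPM in GLU neuroblast-like against 246, 69.3 and 43.0 CPM in GABA neuroblast-like cells, and the GABA neuroblast list to 4550, 1550 and 3040 CPM against 12300, 11900 and 13800 CPM. GABA lineage transcripts in the GLU class were thus not absent, and their part in the fold changes was not tested.

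Oligodendroglial-like cells were set against aNSC-like cells in the P2, P12 replicate 1 and P22 libraries to describe the non-neuronal outcome. Pcdh15, Pcdh17, Pcdh7 and Cdh13, which had their highest means in this class, were among the members that rose most. Of 55 members tested 17 rose and 1 fell, against 26.2% of all genes called, 14.6% higher and 11.6% lower, with a median log2 fold change of 1.14 over the members and -0.02 over all genes.

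Pcdh15 had 102, 220 and 70.8 CPM in oligodendroglial-like and 1.36, 2.42 and 0.41 CPM in aNSC-like cells, a log2 fold change of 6.57 ± 0.30 (edgeR, adjusted p = 0.000729). It was found in 78.7%, 95.8% and 55.1% of oligodendroglial-like cells, against 1.90%, 4.18% and 0.78% of aNSC-like cells. Pcdh17 had 222, 319 and 214 CPM against 10.2, 13.3 and 8.82 CPM (4.50 ± 0.18, edgeR, adjusted p = 0.000683), and Pcdh7 95.7, 189 and 199 CPM against 3.39, 2.53 and 2.31 CPM (5.82 ± 0.40). Cdh13 was nearly the same at the 3 ages, at 84.8, 92.5 and 87.5 CPM in oligodendroglial-like against 2.03, 1.5 and 1.36 CPM in aNSC-like cells (5.74 ± 0.25, edgeR, adjusted p = 0.000729). Cdh6 had 30.4, 49.1 and 27.3 CPM against 1.13, 1.84 and 0.54 CPM (4.92 ± 0.32). For these 5 members the lowest oligodendroglial-like sum was many times the highest aNSC-like sum.

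Of 16 beta members 5 rose (Pcdhb9, Pcdhb10, Pcdhb14, Pcdhb18 and Pcdhb20), of 17 gamma members 2, of 7 type II cadherins 3, of 5 delta-2 protocadherins 3 and of 3 delta-1 protocadherins 2. Cdh4 was the sole member that fell, with 20.1, 35.8 and 9.78 CPM against 29.6, 72.1 and 25.0 CPM (-1.02 ± 0.22), and its ranges overlapped between the classes although each library showed the fall. Without the P2 library 8 members were called. All 14 oligodendroglial markers were found, summing to 6520, 8350 and 38100 CPM in oligodendroglial-like against 395, 354 and 291 CPM in aNSC-like cells, and the TAP list summed to 2990, 7890 and 1140 CPM in oligodendroglial-like against 1470, 793 and 1390 CPM in aNSC-like cells with all 14 genes found. Its part was not tested.

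**Figure D4:**
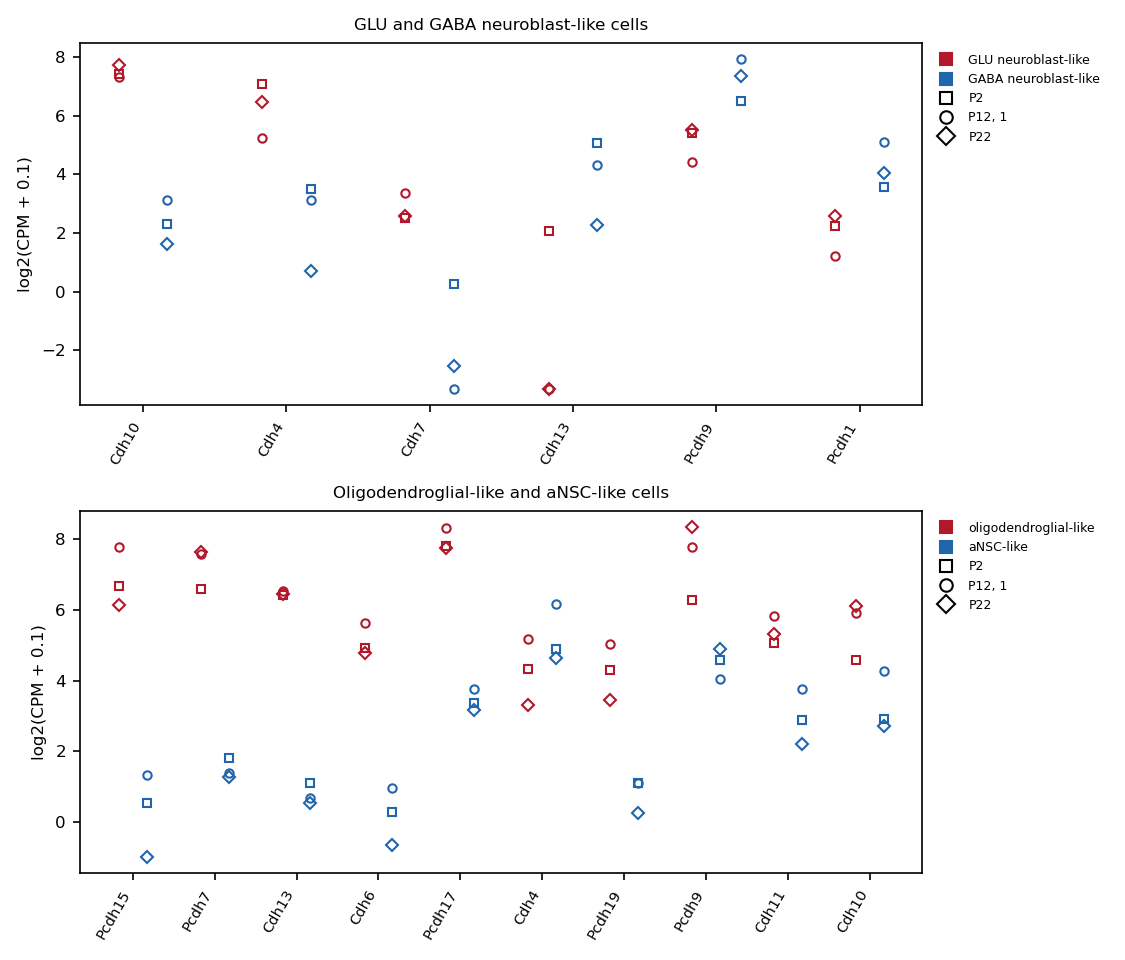
Level on a log2(CPM + 0.1) axis of called members in GLU (red) and GABA (blue) neuroblast-like cells (upper panel) and of the members with the largest changes in oligodendroglial-like (red) and aNSC-like (blue) cells (lower panel), with 1 point per library (square, P2; circle, P12 replicate 1; diamond, P22). Cdh10 lies at 162 to 212 CPM in GLU and at 3.01 to 8.66 CPM in GABA neuroblast-like cells, and Pcdh15, Pcdh7, Cdh13, Cdh6 and Pcdh17 are separated without overlap in the lower panel.

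Astrocyte-like cells share many transcripts with quiescent stem cells, and the 2 were compared at P12 on the members. Of 63 tested 13 rose and 7 fell, against 39.9% of all genes called, 19.4% higher and 20.4% lower. Cdh13 had 9.55 and 10.2 CPM in astrocyte-like and 1.13 and 1.18 CPM in qNSC-like cells (log2 fold change 3.13 ± 0.32, edgeR, adjusted p = 3.63e-21). Pcdh19 had 27.7 and 30.7 CPM against 2.33 and 5.28 CPM (3.02 ± 0.19), and Cdh20 had 20.9 and 26.95 CPM against 3.32 and 3.20 CPM (2.92 ± 0.21). All 3 were separated between the classes in both libraries. Pcdh7, with 63.5 and 110 CPM against 15.6 and 27.5 CPM (2.06 ± 0.10), and Pcdh20, with 6.86 and 8.40 CPM against 1.34 and 1.76 CPM (2.34 ± 0.33), were also higher.

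In the other direction, Pcdh15, Pcdh8 and Cdh4 fell in astrocyte-like cells. Pcdh15 had 3.28 and 4.69 CPM in astrocyte-like and 52.5 and 46.7 CPM in qNSC-like cells (-3.53 ± 0.18, edgeR, adjusted p = 6.14e-82). Pcdh8 had 80.0 and 44.3 CPM against 218 and 140 CPM (-1.51 ± 0.09), and Cdh4 26.6 and 20.9 CPM against 58.6 and 56.1 CPM (-1.25 ± 0.12). These qNSC-like sums were mostly of pallial cells. In subpallial qNSC-like cells alone, Pcdh15 stood at 9.62 and 7.79 CPM, and Cdh4 overlapped in its range with astrocyte-like cells. The part of the regional mix was not tested. Both type I cadherins fell, and so did the gamma gene Pcdhga5, whose levels overlapped (2.98 and 6.45 CPM against 5.76 and 9.84 CPM). Cdh8 had no UMI in astrocyte-like cells and 38 in qNSC-like cells, which makes it at least 1.51-fold lower against a floor of 3 UMIs over the group. Cdh8 passed the filter on low counts through its qNSC-like sums only, which favoured a fall. Without the block 11 of the 20 remained called. The qNSC-like class held 3130 and 2980 CPM of the astrocyte list against 4630 and 5100 CPM in astrocyte-like cells, all 13 genes found in each, so the classes differ by degree on these markers.

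In ependymal-like cells, the ciliated lining of the ventricle, 2 of 62 members rose and 13 fell relative to qNSC-like cells at P12, against 27.2% of all genes called, 15% higher and 12.2% lower. The median log2 fold change was -0.55 over the members and -0.03 over all genes. Cdh26 had 7.13 and 10.1 CPM in ependymal-like and 0.384 and 0.375 CPM in qNSC-like cells (4.45 ± 0.51, edgeR, adjusted p = 2.12e-11). The other rise, Pcdha12, rested on 4 and 5 UMIs in ependymal-like cells (2.48 ± 0.82, edgeR, adjusted p = 0.0164). Cdh26 and Pcdha12 passed the filter on low counts through their ependymal-like sums only, which favoured a rise. Pcdh17 had 16.5 and 18.4 CPM in ependymal-like and 42.4 and 55.5 CPM in qNSC-like cells (-1.5 ± 0.15), and Cdh10 had 16.5 and 11.6 CPM against 31.4 and 45.4 CPM (-1.45 ± 0.18). Pcdh7, Pcdh8 and Pcdh9 fell by 1.11 ± 0.21, 1.11 ± 0.09 and 1.09 ± 0.12 on the log2 scale. None of these 5 overlapped, both type I cadherins fell, and no beta member was called in either direction. Of the 15 calls, 9 remained with DESeq2 and 5 without the block (Cdh26, Pcdh15, Pcdh17, Pcdh9 and Cdh10). The 3 comparisons with qNSC-like cells share those sums, which were mostly of pallial cells.

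Genes that act with the members were counted from lists, and each count stands beside the share of all genes called. Of 11 regulators of clustered protocadherin promoters, which include the insulator protein Ctcf and the cohesin subunit Rad21, all tested, 9 rose and 1 fell in TAP-like over aNSC-like cells (16.3% of all genes higher, 14.4% lower), and 8 fell and none rose in GABA neuroblast-like over TAP-like cells (24% higher, 26% lower). Rad21 had a log2 fold change of 2.00 ± 0.09 in the first comparison and -1.96 ± 0.11 in the second, and the cohesin gene Smc1a -1.27 ± 0.14 in the second (edgeR). TAP cells divide, and cohesin also holds sister chromatids together in dividing cells. The part of cell division in these changes was not tested. Of 10 catenins and junction linkers 9 were tested, and 2 rose and 7 fell in aNSC-like over qNSC-like cells (33.2% of all genes higher, 34.7% lower), with the actin linker Vcl at -2.76 ± 0.14. In pallial over subpallial qNSC-like cells 4 rose and 5 fell of 9 tested (15.3% of all genes higher, 16.5% lower), Vcl at 0.74 ± 0.06 and the neural alpha-catenin Ctnna2 at -1.20 ± 0.07. Of 16 atypical cadherins outside the symbol rule 10 were tested in GLU over GABA neuroblast-like cells, and 2 rose and none fell (5.52% of all genes higher, 5.03% lower), where the planar polarity gene Celsr1 had a log2 fold change of 3.91 ± 0.30 (edgeR, adjusted p = 0.000187). Celsr1 was also the sole gene of 10 tested in its list that was called in gated pallial over gated subpallial cells, against 0.328% of all genes (1.87 ± 0.17, edgeR, adjusted p = 0.0497). Of 13 partners of protocadherin tails 11 were tested in oligodendroglial-like over aNSC-like cells, and 4 rose and none fell (14.6% of all genes higher, 11.6% lower), with the WAVE complex genes Cyfip2 at 2.85 ± 0.27 and Wasf1 at 2.84 ± 0.21. Of 7 cadherin-processing enzymes, all tested, none rose and 5 fell in aNSC-like over qNSC-like cells (33.2% of all genes higher, 34.7% lower). The presenilin gene Psen2 was among those that fell (-1.58 ± 0.19).

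The ages were compared without a test, since P2 and P22 have 1 library each. A member was counted where its CPM in a class was at least 2-fold outside both P12 libraries, among members at 10 CPM or more in any of the 3 libraries. Most members that met this lay below P12: summed over 12 pairs of class and age, 50 of the 56 did. These are repeated counts of the same genes against the same P12 libraries, with Pcdhga12 below in 9 pairs and Cdh4 and Pcdh8 in 6 each. All genes leaned the same way, with more of them below than above P12 in every pair. The share of all genes below P12 ranged from 6.84% in subpallial qNSC-like cells at P22 to 16.7% in aNSC-like cells at P2. The share above ranged from 0.876% in TAP-like cells at P22 to 5.49% in ependymal-like cells at P2. The median gene lay 0.18 to 0.37 log2 units below P12, a shift of -0.12 to 0.06 on TMM-adjusted totals. Pallial qNSC-like cells formed clusters 0 and 3, which were followed apart.

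At P22, 8 of 20 members (40%) lay below both P12 libraries and none above in pallial qNSC-like cells of cluster 0, against 9.52% of all genes below and 1.85% above. In aNSC-like cells 6 of 13 (46.2%) lay below and none above, against 12% and 2.41% of all genes, and in TAP-like cells 4 of 14 (28.6%) and none, against 8.12% and 0.876%. In these 3 classes the members' share below P12 was above that of all genes on plain CPM. On TMM-adjusted totals, Cdh11 and Cdh4 in TAP-like cells stood at 1.85- and 1.83-fold and no longer met the threshold. The members below in cluster 0 included the gamma genes Pcdhgc4, Pcdhga5, Pcdhga12 and Pcdhga7, which have shared ends. In astrocyte-like cells 5 of 23 lay below and none above, against 12.8% and 2.93% of all genes, in subpallial qNSC-like cells 3 of 18 and none, against 6.84% and 1.84%, and in cluster 3, with only 39 cells, 4 of 22 below and 2 above, against 10.4% and 5.4%. At P2, aNSC-like cells had 4 of 13 members below and none above (16.7% and 2.99% of all genes, 19.7% together), subpallial qNSC-like cells 4 of 20 and 1 (11.6% and 3.34%), and astrocyte-like cells 6 of 23 and 1 (14.6% and 4.51%). Ependymal-like cells had 4 of 23 below and 2 above (14.8% and 5.49%, 20.3% together), TAP-like cells 1 of 14 and none (9.73% and 1.2%), and cluster 3 had 1 of 20 and none (13.8% and 3.4%).

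Pcdh8 was below P12 at P22 in all 6 classes or clusters compared and at P2 in none. In TAP-like cells it had 10.1 CPM at P2, 17.3 and 13.7 CPM at P12 and 2.67 CPM at P22. In subpallial qNSC-like cells the values were 111, 119, 77.2 and 23.5 CPM in the same order, and in astrocyte-like cells 62.7, 80.0, 44.3 and 12.3 CPM. The fall at P22 was 2.30- to 5.13-fold against the nearer P12 library. Cdh4 was below P12 in 5 classes at P22 and 1 at P2, as in TAP-like cells with 22.5, 28.6, 61.8 and 13.1 CPM over the 4 libraries, where the 2 P12 libraries themselves differed about as much. Cdh10 was below P12 in 4 of the pairs, with 21.3, 40.7, 64.0 and 15.04 CPM in subpallial qNSC-like cells.

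Other members set P2 apart. Cdh13 was above P12 at P2 in 3 classes: it had 15.1 CPM at P2, 3.54 and 2.12 CPM at P12 and 1.83 CPM at P22 in subpallial qNSC-like cells, 22.3, 9.55, 10.2 and 10.0 CPM in astrocyte-like cells, and 25.5 CPM at P2 against 1.88 and 1.5 CPM at P12 in ependymal-like cells. In GABA neuroblast-like cells, too few at P12 to be counted this way, it had 33.3 CPM at P2, 19.8 CPM at P12 and 4.70 CPM at P22. Cdh13 was thus highest at P2 in these 4 classes, whereas it was nearly level over the ages in oligodendroglial-like cells. Cdh8 in ependymal-like cells had 13.3 CPM at P2, from 13 UMIs, and 1.13 and 0.75 CPM at P12. Pcdh9 was below P12 at P2 in 3 classes, for instance with 30.3, 77.2, 80.8 and 65.6 CPM in subpallial qNSC-like cells.

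The gamma gene Pcdhga12 was below P12 in 9 pairs, 5 at P2 and 4 at P22, with 3.47 CPM at P2, 14.9 and 17.1 CPM at P12 and 6.13 CPM at P22 in TAP-like cells, and Pcdhgc4 in 5 pairs. Pcdhga12 had 25.1 and 35.8 CPM in the P12 libraries and 8.76 CPM at P22 in pallial qNSC-like cells of cluster 0, and 22.5 and 25.1 CPM at P12 and 3.06 CPM at P2 in ependymal-like cells. The 2 P12 libraries stood apart from both other ages for this gene, and they are the 2 counted with the other software version. Without P12 replicate 1 as a reference, 104 instead of 56 class, age and member combinations were counted, and without replicate 2, 55.

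**Figure D5:**
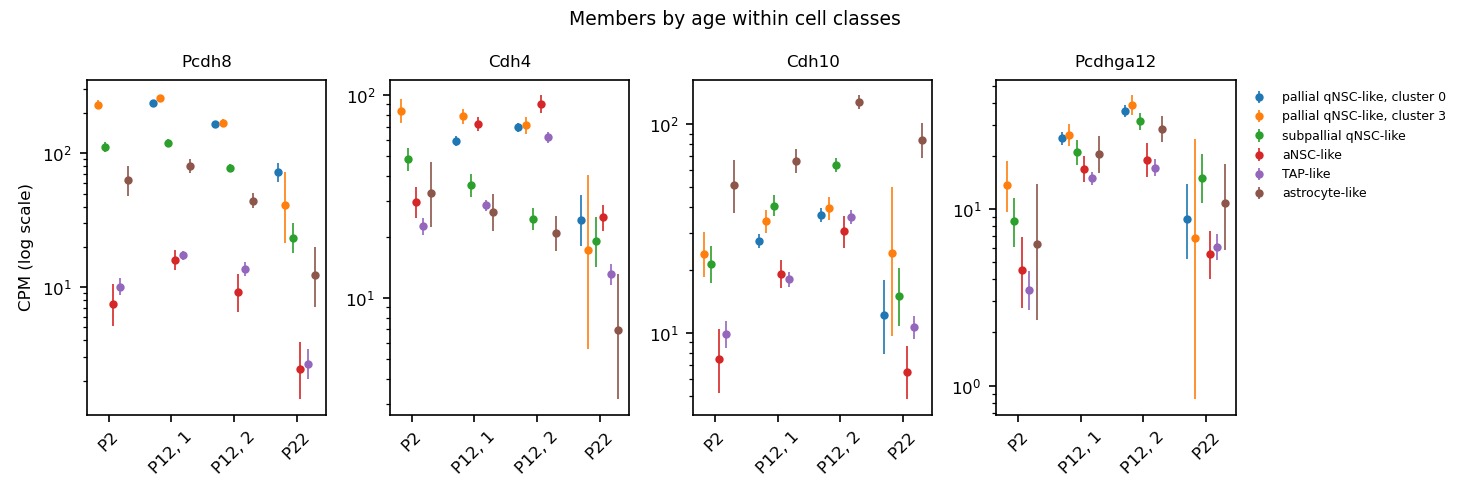
CPM on a log axis of Pcdh8, Cdh4, Cdh10 and Pcdhga12 in 6 classes (colours) at P2, in the 2 P12 libraries and at P22, with exact Poisson 95% intervals for counting error. Pcdh8 is lowest at P22 in every class shown, and Pcdhga12 is lower at P2 and P22 than in both P12 libraries in most classes.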

How the data were processed

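Raw UMI counts per gene and cell were deposited for each library as made by the authors with Cell Ranger on the mouse genome mm10, from 10x Genomics 3′ libraries (version 3.1.0 at P12, 5.0.1 at P2 and P22, per the file headers). Cells with 2000 to 8000 genes and at most 10% mitochondrial counts were kept. Seurat 5.3.0 integrated the P12 libraries on 1968 variable genes (20 components, resolution 0.5) and transferred labels to P2 and P22. The 85 members, regional markers and pathway genes were held out, 172 genes in all. The doublet caller in scanpy 1.11.5 marked 3 to 108 cells per library and did not work in P12 replicate 2 (0.0653%), so no cell was removed by it.

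Counts were summed per library and class (at least 20 cells) and tested in 9 comparisons with edgeR 4.0.16 (quasi-likelihood, TMM, filter on low counts, a block for the library, whose cells share their animals, Benjamini-Hochberg adjustment over all genes). A sparse gene can pass the filter through its sums in a single class, and the direction of its change is then partly set by the filter. The P12 comparisons leave 1 residual degree of freedom. DESeq2 1.42.0, no block, no filter, other cell filters, other libraries, cluster choices and leaving out each library were alternatives. On simulated data, the share of 200 genes changed by a log2 fold of 1 that was recovered ranged from 6.5% (oligodendroglial-like against aNSC-like cells) to 85% (pallial against subpallial qNSC-like cells). Intervals are exact Poisson and cover counting error only. R 4.3.3, limma 3.58.1, Python 3.11.15, scipy 1.17.1 and matplotlib 3.10.9 were used.

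The rule for named members took, per comparison, the 5 largest called changes in each direction that had the same sign in every library, the best counted members of each subfamily for levels, and the 3 largest age folds per class. Members named beyond it were chosen after their values were seen. Members and gene lists were chosen with earlier results of these data known. A gene that fits the symbol pattern is not reported here.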

Additional observations from a re-analysis of the deposited data

Results flagged for a closer look

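Cdh8 moved in opposite directions at different ages between aNSC-like and qNSC-like cells: the log2 ratio was -1.74 in the P2 library, against 1.33 and 1.18 in the P12 libraries. The difference between ages was not tested, and Cdh8 rested on 5 to 20 UMIs per class at P12.

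The endothelial-like class, which entered no comparison, held members that were low or nearly absent elsewhere. Cdh5 reached at least 285.0 CPM in each of its libraries (highest 521 CPM), against at most 0.37 CPM in any other class. Pcdh12 reached 23.5 to 86.8 CPM against at most 0.10 CPM, Pcdh1 147.0 to 163 CPM against at most 34.6 CPM, and Pcdh18 36.9 to 245 CPM against at most 17.0 CPM. The class had 17 to 28 cells per library and was mixed. At P12, 9 of 9 endothelial, 5 of 5 erythroid, 5 of 8 mural and 4 of 7 fibroblast markers were higher in it than in other cells. The part of the non-endothelial transcripts in these levels was not tested. Cdh23 stood at 20.2 CPM in the microglia-like class of the P22 library, against at most 0.64 CPM elsewhere.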

How the results depend on the processing

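Keeping the library as a block decided many calls. Without the replicate block, the members called numbered 1 instead of 32 for pallial against subpallial qNSC-like cells, 20 instead of 39 for aNSC-like against qNSC-like, 0 instead of 10 for TAP-like against aNSC-like, 11 instead of 20 for astrocyte-like, 5 instead of 15 for ependymal-like, 0 instead of 1 for gated and 30 instead of 47 for GABA neuroblast-like against TAP-like cells. DESeq2 gave 11, 21, 5, 9 and 2 for the regional, activation, TAP-like, ependymal-like and gated comparisons. With all libraries, the regional and gated comparisons gave 16 and 2. With no filter on low counts, the gated and the GLU against GABA neuroblast-like comparisons gave 8 and 15. Leaving out a library gave 5 to 12 for GLU against GABA neuroblast-like and 8 to 19 for oligodendroglial-like against aNSC-like cells, in place of 6 and 18. In the P12 comparisons, leaving out a library left no residual degree of freedom, so only values were compared. Pcdh20 reversed to a log2 fold change of 0.32 over all libraries in aNSC-like against qNSC-like cells, and to -0.37 without P12 replicate 1 in TAP-like against aNSC-like cells, where it was 5.51 without P12 replicate 2. The causes were not tested.

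Across ages, CPM on TMM-adjusted totals gave 0 instead of 1 member at P2 in cluster 3, 2 instead of 4 in aNSC-like cells, and 2 instead of 4 at P22 in TAP-like cells. Against a single P12 library, the P2 counts were 1 to 6 in cluster 3, 4 to 9 in subpallial qNSC-like, 5 to 7 in aNSC-like, 1 to 8 in TAP-like, 7 to 12 in astrocyte-like and 8 to 10 in ependymal-like cells. The P22 counts were 2 to 5 in subpallial qNSC-like, 3 to 10 in TAP-like and 6 to 8 in astrocyte-like cells, and all pairs together 55 to 104. This alternative, and counting the unnamed cluster 8 as aNSC-like, were chosen after seeing the data. Of the fold changes of called members, 84 kept their call and 104 lost it without the block, 128 kept and 60 lost it with DESeq2, and 181 kept and 7 lost it with no filter. Low counts limit the alpha genes, none of which passed the filter in the regional comparison, and the GLU neuroblast-like sums. Whether the shared ends of the alpha genes lowered their counts was not tested.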
